A study of Mus musculus with 6 samples.

Results

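Neural plate and neural tube transcription factors were examined in tailbud tissue of mouse embryos with 8 somites (E8.5). The members were 9 genes chosen by name, Sox1, Sox3, Sox21, Pax6, Irx3, Irx5, Hes5, Olig2 and Nkx6-1. They are 9 of 35591 rows of the expression table, and 8 of them had enough reads to be tested among 14123 autosomal and X-linked genes. RNA came from 3 wild-type embryos (Smchd1 +/+, WT) and 3 embryos with both copies of Smchd1 carrying MommeD43, a missense change made by ENU mutagenesis. Every embryo was FVB/NJ and gave its own library, and every cell of the mutants carries the allele. In each group replicate 1 was a male and replicates 2 and 3 were females. The labels give both males the same mother, and the 4 females 4 different mothers.

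The caudal neural plate and the presomitic mesoderm arise side by side in the tailbud, from progenitors that carry both Sox2, a neural factor, and T, a mesodermal factor. Cells that take the neural route keep the SoxB1 factors Sox2 and Sox3, switch on Sox1 and Irx3 and gain, as the tube closes next to the somites, Pax6. Ventral cells later gain Nkx6-1 and Olig2 under Sonic hedgehog, while Hes5, a target of Notch, holds neural progenitors back from becoming neurons. Tissue was cut behind the last formed somite, so neural tube beside the somites lay in front of the cut.

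Library totals recovered from the values ranged from 10957916 to 47298348 reads. Expression is given as RPKM, reads scaled to exon length and library total, so that levels of different genes can be compared. Intervals of single values are exact (Clopper-Pearson) 95% intervals, and they cover counting error only, as does the floor of 3 reads used for a library without a read. Smchd1 itself, in which MommeD43 is a coding change, was at 7.31 to 8.58 RPKM in WT and 7.15 to 7.94 RPKM in MommeD43 embryos, which cannot check the genotype labels. Of the labels, the source entry reads neural stem cells, but tissue and title give tailbud. The tailbud markers T, Tbx6, Msgn1 and Cdx2 were each at 32.2 RPKM or more in every library, and Olig2, typical of neural stem cell cultures, had 2 reads in all 6 libraries together.

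The most and the least expressed of the 9 genes, Hes5 and Olig2, are shown by the 250 bases upstream of their RefSeq start (GRCm38.p6, 5' to 3' on the strand of the gene). Hes5 is on the plus strand, window chr4:154960673-154960922, and Olig2 on the plus strand, window chr16:91225300-91225549. Capitals mark GTGGGAA or its reverse complement TTCCCAC, the core of the sequence bound by RBPJ, the DNA-binding partner of Notch.
Hes5: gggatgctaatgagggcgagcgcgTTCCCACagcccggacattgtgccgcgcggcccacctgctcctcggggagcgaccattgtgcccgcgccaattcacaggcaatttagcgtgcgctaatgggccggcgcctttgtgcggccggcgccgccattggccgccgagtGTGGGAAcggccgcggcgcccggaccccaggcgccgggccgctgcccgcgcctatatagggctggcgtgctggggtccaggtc
Olig2: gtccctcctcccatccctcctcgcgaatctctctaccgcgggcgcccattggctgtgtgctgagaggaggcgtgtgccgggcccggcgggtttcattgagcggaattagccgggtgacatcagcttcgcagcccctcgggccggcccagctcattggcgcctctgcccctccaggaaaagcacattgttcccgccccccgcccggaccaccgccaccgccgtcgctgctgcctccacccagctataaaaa
Both strands were searched. The Hes5 window has 2 matches, which begin 226 and 83 bases upstream of the start, and the Olig2 window has 0. At least 1 match was found in 5.42% of 32851 RefSeq promoter windows of this length, and 2 or more in 0.161%. Windows were at hand for 7 of the 9 genes (8 windows, as Pax6 has 2 starts), and only that of Hes5 held the motif. A match is a description of the letters and not a measured site. GC content was 71.6% for Hes5 and 66.8% for Olig2, against a median of 52.4% over all windows.

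The 9 genes fell into a group of 3 that was above 1 RPKM in every library (Hes5, Sox3 and Irx3) and a group of 6 that was below 1 RPKM in every library. Hes5, Sox3 and Irx3 made up 91.5% to 94.9% of the summed RPKM of the 9 genes in each library. The 5 tested genes of the low group lay between 0.0632 and 0.611 RPKM, on 4 to 138 reads per library. Over all 14123 genes tested, 74.5% were above 1 RPKM in every library.

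**Figure D1:**
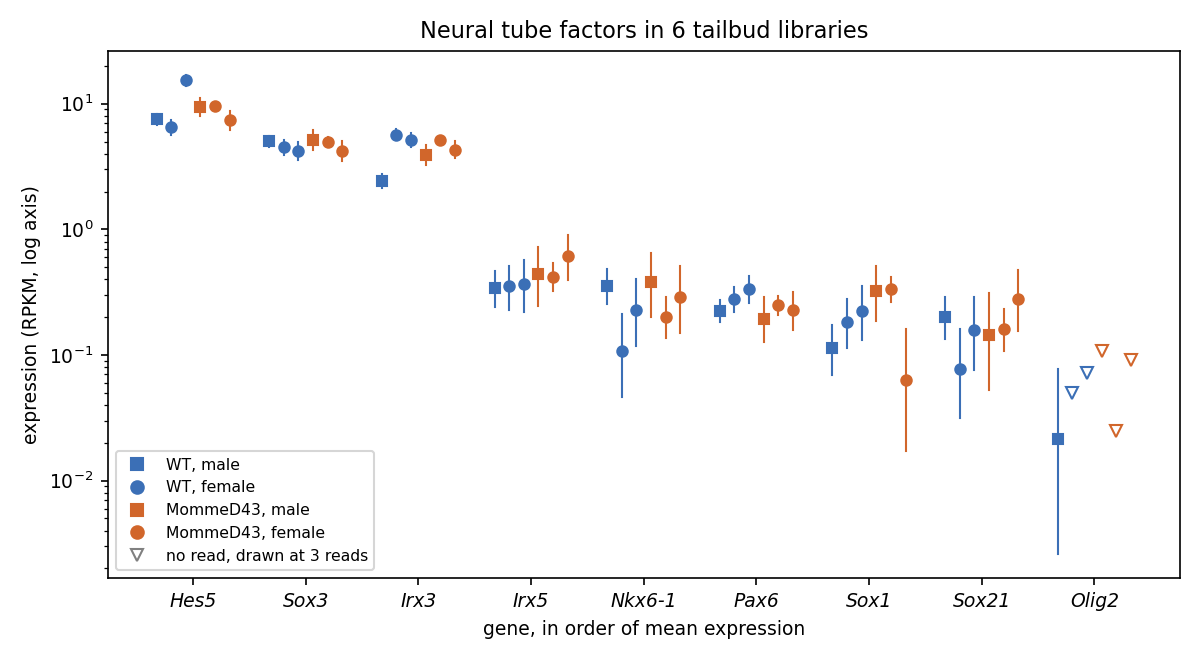
Expression (RPKM, log axis) of the 9 factors in each library, WT in blue and MommeD43 in orange, squares for males and circles for females, with exact 95% counting intervals. Hes5, Sox3 and Irx3 lie above 2 RPKM, Olig2 has reads in 1 library only, and open triangles mark the level of 3 reads where no read was found.

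In order of mean level over the 6 libraries, Hes5 came first at 9.30 ± 3.19 RPKM (SD, n = 6), followed by Sox3 at 4.69 ± 0.426 RPKM and Irx3 at 4.43 ± 1.17 RPKM. Hes5 was above Sox3 in 6 of 6 libraries, by 1.45 to 3.63 times, with separate counting intervals in each. Sox3 and Irx3 could not be ordered over the 6 libraries: Sox3 was the higher in the 2 males and Irx3 in the 4 females. Their counting intervals were separate in the WT male only. Irx3 was above Irx5 in 6 of 6 libraries. Below them, Irx5 (0.421 ± 0.101 RPKM) was above Nkx6-1 in 5 of 6 libraries, with separate intervals in 2. Nkx6-1 (0.261 ± 0.102 RPKM), Pax6 (0.252 ± 0.0491 RPKM), Sox1 (0.207 ± 0.110 RPKM) and Sox21 (0.171 ± 0.0675 RPKM) did not differ from one another, neighbour by neighbour, beyond their spread. Sox21 was above Olig2 in 6 of 6 libraries, with separate intervals in 3. The RPKM of Pax6 was computed over 11694 bases of merged exons of all its isoforms, which lowers its value beside genes with a single exon.

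The first question was whether expression of these factors differed between MommeD43 and WT embryos. No factor passed an adjusted p of 0.05 (limma, Benjamini-Hochberg over 14123 genes, 0 of 8), and 0 had an unadjusted p under 0.05. Over all tested genes, 0 (0%) passed the adjusted threshold and 341 (2.41%) had an unadjusted p under 0.05. With voom on recovered reads 0 genes passed, and 438 had an unadjusted p under 0.05. Over the 8 factors the log2 fold changes had a median of 0.14, with 6 positive and 2 negative values, and over all tested genes the median was 0.00. Groups did not overlap for 1 of the 8, Irx5, against 7.07% of all tested genes. It was higher in MommeD43 (3.53% of all tested genes), and 0 of the 8 were lower without overlap (3.54%). As tailbud was sequenced in bulk, fewer neural cells and less RNA per cell cannot be told apart in any of these values.

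**Figure D2:**
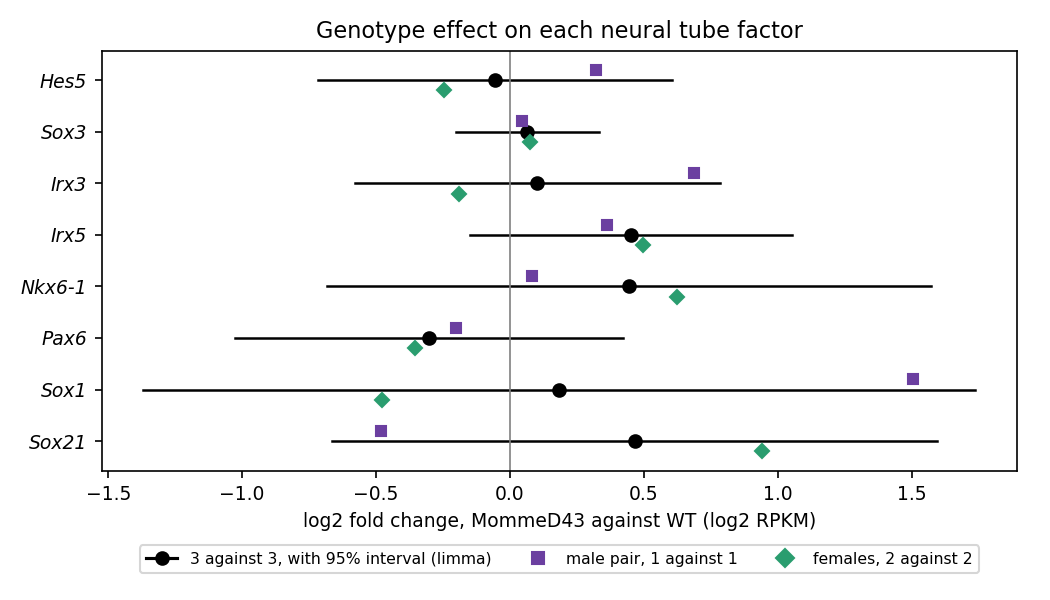
Log2 fold change (MommeD43 against WT) of the 8 tested factors, with black circles and lines for all 6 libraries and their 95% intervals from limma, squares for the male pair and diamonds for the females. All 8 intervals include 0. The interval of Sox3 is the narrowest, and the male and female values lie on opposite sides of 0 for Sox1, Sox21, Irx3 and Hes5.

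The SoxB1 factors hold cells in a neural progenitor state. Sox3 (ENSMUSG00000045179) is a single-exon gene on chromosome X, 60891366 to 60893430, minus strand, that overlaps no other annotated exon. It was at 5.01, 4.49 and 4.22 RPKM in WT replicates 1, 2 and 3, and at 5.17, 4.996 and 4.22 RPKM in MommeD43 replicates 1, 2 and 3. The values of the groups overlapped, and the male of each group was its highest library. MommeD43 and WT differed by 0.07 ± 0.12 on the log2 scale (SE, adjusted p = 0.9995, limma), and the 95% interval of the fold ran from 0.871 to 1.26. The spread of Sox3 within groups, 0.14 on the log2 scale, equalled the median of all tested genes (0.14). Of the 8 factors, Sox3 had the narrowest interval.

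For Sox3, an X-linked gene, both males (5.01 and 5.17 RPKM) were above all 4 females (4.22 to 4.996 RPKM), of which the highest lay just below the WT male. How many of all tested genes had the sexes separated in this way was not counted, for Sox3 or for Irx3, Pax6 and Nkx6-1 below. The difference of males against females, 0.19 ± 0.11 (SE) on the log2 scale with genotype in the fit, did not pass the threshold (adjusted p = 0.657, limma). None of the 8 factors differed between the sexes at an adjusted p of 0.05, and 1, Irx3, had an unadjusted p under 0.05, against 0.00708% and 8.16% of all tested genes. Sex and mother cannot be told apart for the males, which share a mother.

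Sox1 (ENSMUSG00000096014, chromosome 8, 12395295 to 12400126, plus strand), the SoxB1 factor whose onset marks neural plate cells, was far below Sox3. It was at 0.113, 0.184 and 0.224 RPKM in WT replicates 1, 2 and 3. In MommeD43 replicates 1, 2 and 3 it was at 0.321, 0.337 and 0.0632 RPKM. The lowest MommeD43 value rests on 4 reads, with an interval of 0.0172 to 0.162 RPKM, and it lies below every WT value while the other two lie above. An annotated gene on the same strand shares 1.78% of the Sox1 exon. For Sox1 the log2 difference was 0.18 ± 0.68 (SE, adjusted p = 0.9995, limma), with a 95% interval of the fold from 0.387 to 3.34. Leaving out MommeD43 replicate 3 gave 0.98, and leaving out WT replicate 1 gave -0.10. Leaving out MommeD43 replicate 1 gave -0.19, and leaving out MommeD43 replicate 2 gave -0.23. In MommeD43 replicate 3 some further genes of the lists were also low: Lmx1a, a roof plate factor, was at 0.0225 RPKM there and 0.376 to 0.910 RPKM elsewhere. Noto, a notochord factor, was at 0.0954 RPKM there and 3.44 to 6.23 RPKM elsewhere. Other genes of these lists were not low there. Lmx1b was at 1.03 RPKM, its highest value. Shh was at 3.46 RPKM, above WT replicate 1 (2.70 RPKM), and Foxa2 at 3.22 RPKM, above MommeD43 replicate 2 (3.19 RPKM). The same library had the lowest summed blood and yolk sac markers, 49.8 RPKM against 136 to 706 RPKM elsewhere. The part of these differences in the Sox1 value was not tested.

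Sox2, the third SoxB1 factor and no member, was at 11.8 to 15.4 RPKM, which is 2.62 to 3.43 times Sox3 and 41.3 to 212 times Sox1 in the same library. Its log2 fold change was -0.01 (adjusted p = 0.9995, limma). Sox21 (ENSMUSG00000061517, chromosome 14, 118233232 to 118237030, minus strand), a SoxB2 factor that counteracts SoxB1 proteins, was at 0.201, 0.0780 and 0.158 RPKM in WT replicates 1, 2 and 3. It was at 0.144, 0.161 and 0.282 RPKM in MommeD43 replicates 1, 2 and 3, on 6 to 29 reads per library. The groups overlapped, with the lowest library in WT and the highest in MommeD43. Sox21 gave a log2 fold change of 0.47 ± 0.49 (SE, adjusted p = 0.9995, limma), and of 0.07 without WT replicate 2. On the other strand the noncoding gene Gm4675 covers 18.8% of the Sox21 exon, and it held 42 reads in all against 94 for Sox21.

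The Iroquois factors Irx3 and Irx5 are neighbours on chromosome 8, with 556 kb between them. Irx3 is a homeodomain factor of the preneural and neural tube that, in later patterning, bounds the Olig2 domain from above. Irx3 (ENSMUSG00000031734, 91798525 to 91802067, minus strand) was at 2.42, 5.67 and 5.12 RPKM in WT replicates 1, 2 and 3. In MommeD43 replicates 1, 2 and 3 it was at 3.90, 5.17 and 4.32 RPKM. The WT male was the lowest library and a WT female the highest, so the MommeD43 values lay inside the range of the WT values. Between genotypes Irx3 differed by 0.10 ± 0.30 on the log2 scale (SE, adjusted p = 0.9995, limma). Without WT replicate 1 the value was -0.28, without WT replicate 2 it was 0.33, and among the females alone it was -0.19. The counting interval of the WT male, 2.13 to 2.75 RPKM, was separate from those of the other 5 libraries, which together reached from 3.23 to 6.28 RPKM. On the other strand the noncoding gene Irx3os covers 4.49% of the Irx3 exons, with 75 reads in all against 1799. The within-group chi-square of Irx3 reads per degree of freedom was 33.3, where counting error alone gives a value near 1.

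Both males were below all 4 females in Irx3. The difference of males against females was -0.71 ± 0.20 (SE) on the log2 scale, with an adjusted p of 0.554 (limma, unadjusted p = 0.00872). The genotype effect was 0.69 for the male pair and -0.19 for females. The difference between these effects, 0.88 ± 0.23 (SE), did not pass the threshold either (adjusted p = 0.275, limma, unadjusted p = 0.00750). There was 1 male per genotype, so a difference between sexes and a difference between single embryos cannot be told apart.

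The WT male was also the highest or the lowest library for some genes of other cell types. The 16 listed genes of neuromesodermal progenitors and presomitic mesoderm, 14 of them tested, summed to 1225 RPKM there, against 869 to 1121 RPKM in the other libraries. Over the groups the sum ran from 880 to 1225 RPKM in WT and from 869 to 1121 RPKM in MommeD43, and no gene of the list was at 0 in every library. T was at 188 RPKM in the WT male and 117 to 141 RPKM elsewhere. Not all genes of the list were highest there. Cdx4 was at 233 RPKM in the WT male and 276 RPKM in WT replicate 3, and Lfng was lowest in the WT male, at 8.13 RPKM. With 1 male per genotype, T, Msgn1 and Evx1 passed the test of unequal genotype effects in males and females, at adjusted p values of 0.0278, 0.0262 and 0.0279 (limma). So did 4 of 12 blood and yolk sac markers, Ttr, Apob, Rbp4 and Afp, at adjusted p values of 0.000124, 0.00567, 0.00864 and 0.0486 (limma). Ttr, which encodes the carrier transthyretin, was at 29.0 RPKM in the WT male and 66.3 and 69.9 RPKM in the WT females. In MommeD43 it was at 108 RPKM in the male and 12.6 and 13.9 RPKM in the females. The WT male was thus neither the highest nor the lowest library for Ttr. Apart from T, Cdx4, Lfng and Rbp4 these genes were named after their values were seen. Without the mean-variance trend 0 of all tested genes passed in that comparison, against 35 with it, and 1362 had an unadjusted p under 0.05. The 6 endothelial markers summed to 21.5 RPKM in the WT male and 30.2 to 39.5 RPKM elsewhere. The part of such tissue differences in the Irx3 value was not tested.

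**Figure D3:**
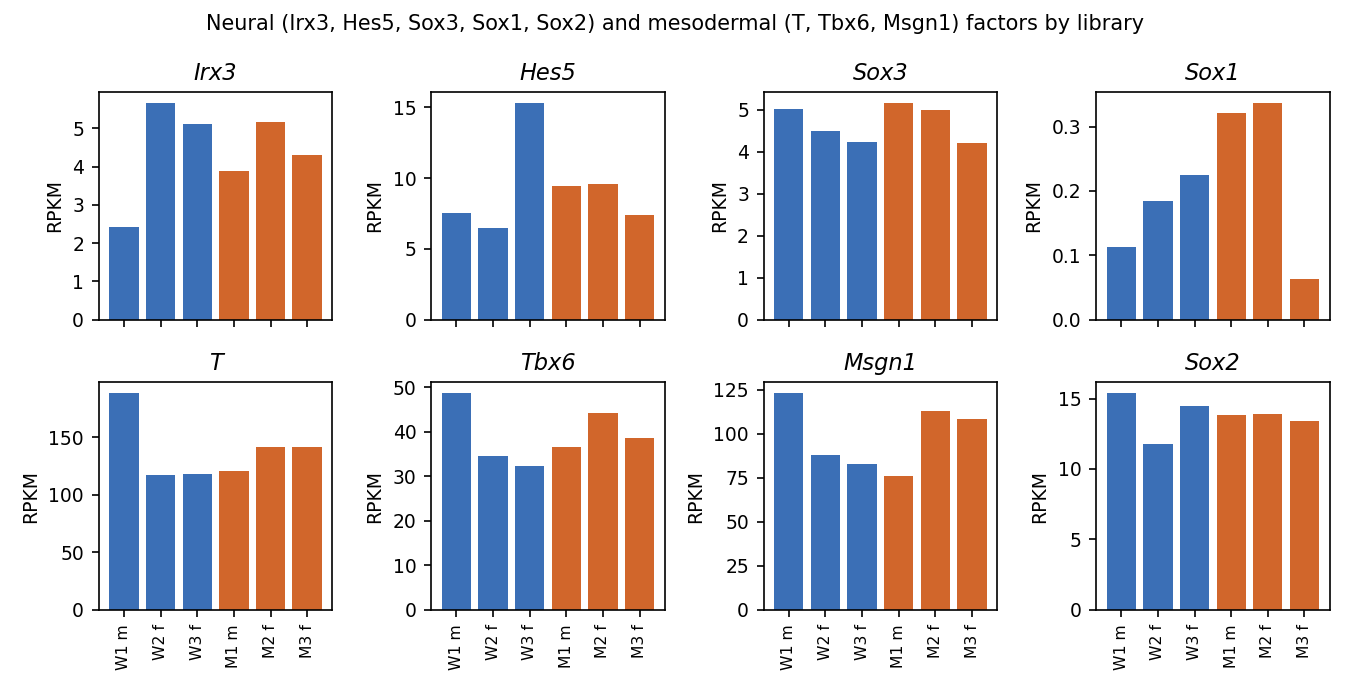
Expression (RPKM, linear axes from 0) of 5 neural and 3 mesodermal factors in each library, WT in blue (W) and MommeD43 in orange (M), numbered by replicate, with m for male and f for female. The WT male has the lowest Irx3 (2.42 RPKM) and the highest T (188 RPKM), and the Hes5 bar of WT replicate 3 (15.3 RPKM) exceeds all others.

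Irx5 (ENSMUSG00000031737, chromosome 8, 92357625 to 92376286, plus strand) was at 0.341, 0.352 and 0.366 RPKM in WT replicates 1, 2 and 3, and at 0.438, 0.419 and 0.611 RPKM in MommeD43 replicates 1, 2 and 3. Each MommeD43 library was above each WT library, which held for 3.53% of all tested genes in this direction. Irx5 gave a log2 fold change of 0.45 ± 0.26 (SE, unadjusted p = 0.121, adjusted p = 0.9995, limma), with a 95% interval of the fold from 0.902 to 2.07. The value was 0.36 for the male pair, 0.50 for the females and 0.28 without MommeD43 replicate 3. Without the mean-variance trend its unadjusted p was 0.0302 (adjusted p = 0.999, limma). The counts were 15 to 62 reads per library, and the counting intervals of every WT library overlapped those of every MommeD43 library. The spread of Irx5 within groups was no larger than counting error (chi-square per degree of freedom 0.669). Irx3 was at 7.06 to 16.1 times the level of Irx5 in the same library.

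Hes5 (ENSMUSG00000048001, chromosome 4, 154960923 to 154962371, plus strand), a bHLH repressor, carries the promoter with 2 RBPJ motifs shown above. It was at 7.55, 6.49 and 15.3 RPKM in WT replicates 1, 2 and 3, and at 9.44, 9.57 and 7.40 RPKM in MommeD43 replicates 1, 2 and 3. WT replicate 3 stood above the others, with a counting interval of 13.7 to 17.0 RPKM, and the MommeD43 values lay inside the range of the WT values. In Hes5 the genotypes differed by -0.06 ± 0.29 on the log2 scale (SE, adjusted p = 0.9995, limma). The value was 0.32 without WT replicate 3 and 0.06 without MommeD43 replicate 3. The within-group chi-square of Hes5 reads per degree of freedom was 35.8, the highest of the 9 factors. On the other strand the noncoding gene Gm20421 covers 31.8% of the Hes5 exons, and it held 5 reads in all, where Hes5 held at least 132 in each library.

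The library with the highest Hes5, WT replicate 3, had the lowest sum of the other Notch pathway genes. The 14 listed genes, receptors, ligands, RBPJ and targets such as Hes1, summed to 132 RPKM there and to 137 to 145 RPKM in the other libraries. The ligand Dll1 was at 26.0 RPKM in this library and at 27.0 to 35.7 RPKM elsewhere, whereas Hes1 was at 25.5 RPKM there, within the 19.7 to 26.1 RPKM of the others. Notch1 (6.39 RPKM) and Jag1 (8.16 RPKM) were also at their lowest there, while Nrarp (25.9 RPKM) and Rbpj (2.74 RPKM) lay within the range of the others. A link of the sum to the Hes5 value was not tested. All 14 were tested against genotype and 0 passed an adjusted p of 0.05 (limma). At an unadjusted p under 0.05 there was 1 (2.41% of all tested genes), the receptor Notch3. It had a log2 fold change of -0.21 and non-overlapping groups (7.07% of all tested genes). The ligand Dll1 (0.22) and the target Hes1 (0.17) came next in unadjusted p. The median of the list was 0.09.

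Pax6 (ENSMUSG00000027168, chromosome 2, 105668900 to 105697364, plus strand), a paired-box factor of intermediate neural tube, was at 0.224, 0.279 and 0.334 RPKM in WT replicates 1, 2 and 3. In MommeD43 replicates 1, 2 and 3 it was at 0.195, 0.250 and 0.229 RPKM. In both groups the male was the lowest, and both males were below all 4 females. The gap was small, with 0.224 RPKM in the WT male and 0.229 RPKM in MommeD43 replicate 3, and their counting intervals overlapped. For Pax6 the difference of males against females was -0.37 ± 0.32 (SE) on the log2 scale (adjusted p = 0.769, limma). The difference between genotypes was -0.30 ± 0.32 on the log2 scale (SE, adjusted p = 0.9995, limma), with a 95% interval of the fold from 0.490 to 1.34. It was negative for the male pair (-0.20) and for the females (-0.35). Without WT replicate 3 the value was -0.16. Its sign was kept in all 16 alternatives that could be fitted, as were those of Sox3, Sox21 and Irx5. The male pair alone was not among these alternatives, and for Sox21 it gave -0.48.

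Nkx6-1 (ENSMUSG00000035187, chromosome 5, 101658139 to 101664996, minus strand), a homeodomain factor of ventral neural tube, was at 0.357, 0.108 and 0.230 RPKM in WT replicates 1, 2 and 3. It was at 0.378, 0.202 and 0.292 RPKM in MommeD43 replicates 1, 2 and 3. Both males (0.357 and 0.378 RPKM) were above all 4 females (0.108 to 0.292 RPKM), and the groups overlapped. For Nkx6-1 the difference of males against females was 0.91 ± 0.44 (SE) on the log2 scale (adjusted p = 0.622, limma). Nkx6-1 had a log2 fold change of 0.44 ± 0.49 (SE, adjusted p = 0.9995, limma), and of -0.03 without WT replicate 2, in which the gene held 8 reads. Olig2 (ENSMUSG00000039830, chromosome 16, 91225457 to 91228677, plus strand), which specifies motor neuron progenitors, held 2 reads in WT replicate 1 and none in the other 5 libraries. The floor of 3 reads corresponds to 0.0251 RPKM in the deepest and 0.108 RPKM in the shallowest library, so a level below these could not be told from absence. It was not tested, and no fold change is given.

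Of the Hedgehog pathway, which sets ventral identity, 12 of 12 listed genes were tested, 0 passed an adjusted p of 0.05 (limma) and 1 had an unadjusted p under 0.05. This was Gli2, a transcriptional effector, with a log2 fold change of -0.19 and non-overlapping groups. Of all tested genes, 2.41% had an unadjusted p under 0.05 (limma) and 7.07% had groups without overlap. Gli3 (-0.17) and Gas1 (0.12) followed Gli2 in unadjusted p, and the median of the list was -0.04. Of the retinoic acid pathway, which promotes Pax6 and Irx3 in cells leaving the tailbud, 11 of 11 genes were tested and 0 passed, also without adjustment. Cyp26b1 (0.62), Crabp2 (0.07) and Rdh10 (-0.13) had the smallest unadjusted p, and the median was 0.05. Aldh1a2, the enzyme that makes retinoic acid in the somites, was at 5.73 to 10.5 RPKM.

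Other neural factors were listed to place the 9 genes. Of 30 such genes, 18 were tested and 10 were above 1 RPKM in every library, among them Sox2, Pax2, Msx1, Msx2, Foxa2, Irx2, Zic2, Sp8 and Hes3. Several of these are also used outside the neural plate, such as Foxa2 in notochord and Msx1 in mesoderm. Dbx1, Gsx2, Olig1 and Prdm12 had no read in any library, and Nkx2-2 had 1 read. Other factors of discrete neural tube domains were higher, such as the dorsal factor Pax3 at 0.889 to 1.65 RPKM and Lmx1b at 0.468 to 1.03 RPKM, both named after their values were seen. Against genotype 0 of 18 passed an adjusted p of 0.05 (limma), and 0 had an unadjusted p under 0.05. Lmx1a (-2.09), Irx1 (0.599) and Sp8 (-0.20) had the smallest unadjusted p, and the median log2 fold change was 0.00. The Lmx1a value had an SE of 1.07, with overlapping groups, and was -0.31 for the male pair and -2.99 for the females. It includes MommeD43 replicate 3, where Lmx1a was at 0.0225 RPKM, against 0.376 and 0.548 RPKM in MommeD43 replicates 1 and 2.

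Genes of neurogenesis and neurons included 8 tested of 18, with 0 past an adjusted p of 0.05 (limma) and 0 past an unadjusted p of 0.05. The proneural gene Neurog2 was at 0.103 to 0.533 RPKM, and Neurod4 had no read. Hes6 (0.18), Tubb3 (-0.27) and Elavl3 (-0.52) had the smallest unadjusted p. Of 12 anterior neural markers, 4 were tested and 0 passed either threshold, with log2 fold changes of -0.48 for Emx2 and -0.14 for Lhx2. Otx2, the forebrain and midbrain factor, was at 0 to 0.129 RPKM. The mesodermal list held 1 gene with an unadjusted p under 0.05 among 14 tested, against 2.41% of all tested genes. This was the clock gene Hes7 (log2 fold change 0.47), followed by Lfng (0.44) and Cdx4 (-0.11), and the median of the list was 0.01.

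In the lists of further tissues the dissection could hold, 0 genes passed an adjusted p of 0.05 (limma). Tested were 5 of 10 somite markers, 10 of 10 surface ectoderm markers, 12 of 12 blood and yolk sac markers, 6 of 6 endothelial markers and 7 of 8 notochord and hindgut markers. Of these, 1 gene, the endothelial receptor Tie1 (log2 fold change 0.48), had an unadjusted p under 0.05, against 2.41% of all tested genes. The median log2 fold changes were 0.14, 0.10, -1.06, 0.42 and -0.07 in that order. For the blood and yolk sac markers the median was 1.66 in the male pair and -2.38 among females, and for the endothelial markers it was 1.14 and -0.04. The summed blood and yolk sac markers ran from 136 to 706 RPKM in WT and from 49.8 to 430.4 RPKM in MommeD43. Summed somite markers were at 3.96 to 5.56 RPKM in WT and 4.33 to 5.12 RPKM in MommeD43. The part of these tissues in the values of the 9 factors was not tested.

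The effect of genotype was also compared between the male pair and the females. It had opposite signs for 4 of the 8 factors, Sox1 (1.51 and -0.48), Sox21 (-0.48 and 0.94), Irx3 (0.69 and -0.19) and Hes5 (0.32 and -0.24, male pair first). None of the 8 passed an adjusted p of 0.05 for this difference and 1, Irx3, had an unadjusted p under 0.05 (limma). Over all tested genes these shares were 0.248% and 11%.

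The 8 tested factors did not share a lowest library. It was WT replicate 1 for Irx3 and Irx5, WT replicate 2 for Sox21, Nkx6-1 and Hes5, MommeD43 replicate 3 for Sox1 and Sox3, and MommeD43 replicate 1 for Pax6. The mean profile of these factors, each centred on its own mean, spanned -0.29 (WT replicate 2) to 0.18 (WT replicate 3) on the log2 scale. The 8 genes nearest to this profile, by root-mean-square difference of centred log2 RPKM over the 6 libraries, were Cdk5r1, Dnajb3, Mmgt2, Akr1b10, Pkn3, Zfp839, Htatip2 and Idi1, with differences of 0.0647 to 0.0846.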

How the data were processed

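RNA of dissected tailbud from 6 embryos was sequenced by the authors as stranded poly(A) libraries. Per the study's methods and the submitters' processing notes, reads were trimmed with Trim Galore 0.4.4, mapped with HISAT2 2.0.5 to GRCm38.p6 and quantified per gene in SeqMonk. The deposited values are log2 RPKM, one column per library. Whether strand was used in counting is not given in the sources used here. The authors' group means were not used.

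Exon lengths came from GENCODE M21 (35555 of 35591 rows matched). Whole reads were recovered from RPKM, exon length and the level of genes without a read (0.9 read). Of 105866 values above that level, 99.0% were whole within 0.02. Genes were kept where 3 libraries reached the depth-scaled equivalent of 10 reads in a library of median size, with 15 reads in all. This left 14123 genes, 13617 autosomal and 506 X-linked. The latter were included because Sox3 is X-linked.

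Under R 4.3.3, limma 3.58.1 was fitted, with its mean-variance trend, to the deposited log2 values of all kept genes without a pseudocount. Tests were two-sided, with Benjamini-Hochberg adjustment. Further fits had sex as a term, or a coefficient for each sex and genotype. On simulated data for MommeD43 against WT (14123 genes, 200 changed 2-fold), 82.5% of changed genes were recovered, with 8 calls among unchanged genes. Every simulated gene had the same variation between replicates beyond counting error, and changed genes were drawn from all kept genes. The share recovered does not apply to factors with few reads or a wide spread within groups. On the log2 scale that spread was 1.04 for Sox1, 0.50 for Irx3 and 0.49 for Hes5.

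The members and lists were chosen with earlier results of these data known. Named were the members, Sox2, T, the 3 genes of each list with the smallest unadjusted p where none passed (values given for the neural, mesodermal and signalling lists), and the 8 genes nearest in profile. Some genes these rules select are not reported here. Other genes were named after their values were seen. Replicates were separate embryos. Promoters are from RefSeq (GRCm38.p6). Tables were handled in pandas 2.3.3 and numpy 2.4.6 (Python 3.11.15), intervals came from scipy 1.17.1, and plots from matplotlib 3.10.9.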

Additional observations from a re-analysis of the deposited data

How the results depend on the processing

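The number of factors past an adjusted p of 0.05 was 0 in each of 17 alternatives (limma), and the adjusted p of single factors was at least 0.628 in all of them. The number with an unadjusted p under 0.05 was 0 as well, except without the mean-variance trend, where it was 1 (Irx5, unadjusted p = 0.0302). Of 130 fold changes of single factors, 119 kept their sign. Among the females alone those of Sox1 (-0.48) and Irx3 (-0.19) reversed, as did the median over the factors (-0.057), and with voom that of Hes5 (0.087). That fit of females has fewer samples, and for voom the cause was not tested. When each library was left out in turn, the median ranged from 0.012 (without MommeD43 replicate 2) to 0.36 (without WT replicate 3), Sox1 from -0.23 to 0.98, Irx3 from -0.28 to 0.33, Hes5 from -0.30 to 0.32 and Nkx6-1 from -0.025 to 0.84. A pseudocount of 1 RPKM shrank the value of Irx5, a low gene, to 0.14. A filter of 1 RPKM left only Hes5, Sox3 and Irx3 to test.

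With the replicate number as a block, 0 factors passed, also without adjustment, and 319 of all genes had an unadjusted p under 0.05, against 341 without it. The paper describes the embryos as 3 somite-matched pairs, and the labels give both embryos numbered 1 the same mother. Deviations of same-numbered libraries correlated at 0.0837, 0.347 and -0.164 for numbers 1, 2 and 3. With 3 libraries per group these values cannot settle whether the numbers are pairs, and the main fit did not use them as pairs. Not every library correlated best with its own number. Depth limits Olig2 most, with 2 reads in all, and among the tested factors Sox1, Sox21 and Nkx6-1, with single libraries of 4, 6 and 8 reads.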
